A study of Mus musculus with 12 samples.

Results

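The interaction of trisomy with the Trib1 leukaemic state is a difference of differences. For each gene it was computed on the log2 scale as the genotype difference in leukaemia lines labelled as expressing Trib1 (Ts1Cje Trib1 minus B6 Trib1) minus the genotype difference in cells without Trib1 (Ts1Cje minus B6). It took in all 12 of the study's 12 arrays, 3 in each of 4 groups, and all 45037 probe sets among 45141 that are not array controls. Of these, 28543 exceeded the 40th percentile of their array on at least 3 arrays, and those with 1 gene symbol represented 12560 genes. A positive interaction means that Ts1Cje stood higher relative to B6 with Trib1 than without it, and a negative interaction means the opposite.

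The B6 group was hematopoietic cells of C57BL/6 mice, and the Ts1Cje group was hematopoietic cells of Ts1Cje mice, in which a segment of chromosome 16 is present in an additional copy. The B6 Trib1 and Ts1Cje Trib1 groups were acute myeloid leukaemia (AML) cell lines of these backgrounds with wild-type Trib1. Cells of all 4 groups were grown in IMDM with 10% serum and 5 ng/ml IL-3, a cytokine that keeps myeloid progenitors and mast cells dividing. The labels give neither age nor sex, nor what drives Trib1, nor whether a line is 1 clone. They do not say whether the 3 arrays of a group came from separate mice, lines or cultures, so the spread on which every p-value rests may be technical. Trib1 and leukaemic state went together, and their effects cannot be told apart.

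Neutrophils and monocytes arise from shared progenitors under the transcription factors PU.1 (Spi1) and C/EBP alpha, and neutrophils then fill primary, secondary and tertiary granules in that order. Trib1 is a pseudokinase that brings the ligase COP1 to C/EBP alpha, which is then degraded, and that also raises MEK-ERK signalling. Mouse trisomies of the chromosome 16 segment model part of Down syndrome, in which myeloid leukaemia is more frequent.

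Values below are array intensities on a linear scale, or log2 differences of intensity + 15. The added 15 draws differences of dim genes towards 0. Array medians lay between 30.5 and 31.99, and a group mean under 50 is called dim here. The gene of the common leukocyte antigen, Ptprc, had means of 3037, 2918, 2417 and 2062 in B6, Ts1Cje, B6 Trib1 and Ts1Cje Trib1, the order in which 4 means are given throughout. The probe set for Trib1 had means of 76.2, 72, 46.2 and 45.9, so its signal was not higher in the lines. It does not check the labels, which do not say whether the Trib1 placed in the lines holds the sequence it reads. Its interaction of 0.06 (SE 0.09, adjusted p = 0.605) did not pass. In array controls for RNA quality, the ratio of 3' to 5' Gapdh signal had means of 1.11, 1.00, 0.915 and 0.918, so it was highest in B6. That for actin had means of 1.23, 1.16, 1.17 and 1.16. The ratio for pyruvate carboxylase, at 1.69, 1.68, 2.60 and 2.93, was highest in Ts1Cje Trib1, and that for the transferrin receptor, at 7.74, 7.41, 6.21 and 5.01, was lowest there. These controls moved in different directions, and the part of RNA quality in the interaction was not tested.

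Nearly as many genes passed the interaction test as the genotype comparison without Trib1. By limma, at an adjusted p under 0.05, the interaction passed in 6110 of 12560 genes (48.6%). It was positive in 3572 (28.4%) and negative in 2538 (20.2%). The genotype difference passed in 6608 genes without Trib1 (52.6%) and in 2701 with it (21.5%). Most interactions were small: the middle of the distribution ran from -0.15 at the 25th percentile to 0.22 at the 75th, with a median of 0.01. The balance of signs depended on scaling. Centring each array on the median of the tested genes, an alternative chosen after seeing the data, moved the median to -0.10 and gave 2224 positive and 4042 negative genes.

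Large interactions were mostly negative. At a size of at least 1, which is a 2-fold change of the ratio between genotypes, 255 genes were negative (2.03%) and 163 were positive (1.3%). At a size of at least 2, 44 were negative and 4 were positive. The excess at a size of at least 1 varied with the processing. Without both Ts1Cje 1 and B6 Trib1 3, 240 genes were negative and 224 positive. An added value of 1 gave 299 and 250, and centring on the tested genes gave 307 and 110. All 418 genes of size at least 1 kept their sign and an adjusted p under 0.05 under quantile normalization and under both centrings. The same held with added values of 1 and 50, and with averaging of the probe sets of a gene. Not all kept that size: with an added value of 50, 177 negative and 80 positive genes had a size of at least 1. In 354 of the 418, the 3 arrays of one genotype did not overlap those of the other in either comparison. The 418 were selected on these same arrays and the share over all genes was not counted, so this only describes them. The mean was below 50 in both Trib1 groups for 52 of the 418, and in both groups without Trib1 for 12.

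The genes were sorted by which genotype differences passed. A gene higher in Ts1Cje without Trib1 and lower in Ts1Cje with Trib1 is called crossed downward here, and one lower without and higher with Trib1 is called crossed upward. Among the 6110 genes, 639 crossed downward (5.09% of all genes tested) and 626 crossed upward (4.98%). Leaving out Ts1Cje 1 and B6 Trib1 3 together, a choice made after seeing the data, gave 839 and 1027. In 3593 genes only the difference without Trib1 passed, in 646 only that with Trib1, in 182 both passed in the same direction, and in 424 neither did. Among the 418 large interactions, 225 crossed downward and 83 upward, while 84 passed without Trib1 alone, 16 with Trib1 alone and 10 in the same direction. The 2 genotype differences that make up the interaction share no array.

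**Figure D1:**
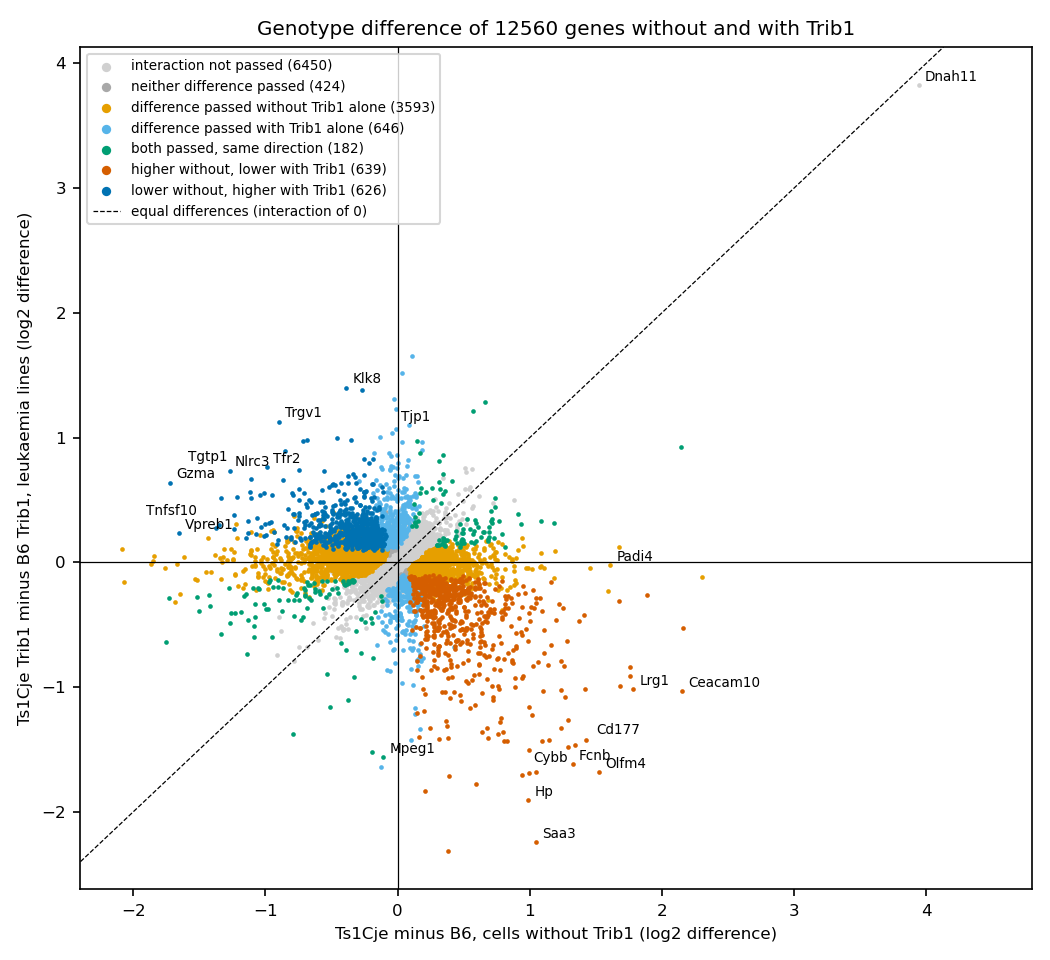
Each point is 1 of the 12560 genes tested, with the log2 genotype difference without Trib1 on the horizontal axis and with Trib1 on the vertical axis, coloured by which differences passed. The 639 genes at the lower right reach further from the dashed line of equal differences than the 626 at the upper left, and Dnah11 lies close to that line at the upper right.

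The 8 largest downward crossings were proteins of late granulocytes and the acute phase. Serum amyloid A3 (Saa3), an acute phase apolipoprotein, had intensities of 446, 449 and 428 in B6, 961, 916 and 903 in Ts1Cje, 327, 311 and 349 in B6 Trib1 and 56.04, 59.5 and 57.6 in Ts1Cje Trib1. The Ts1Cje arrays were the highest and the Ts1Cje Trib1 arrays the lowest, with no overlap between any groups. The genotype difference was 1.05 without Trib1 and -2.24 with it, which gave an interaction of -3.29 (SE 0.06, adjusted p = 3.49e-12). Ficolin B (Fcnb), a lectin that myeloid cells secrete, read 132, 136 and 127 in B6, 345, 358 and 353 in Ts1Cje, 181, 181 and 167 in B6 Trib1 and 49.6, 49.7 and 42.7 in Ts1Cje Trib1. B6 Trib1 lines held more Fcnb signal than B6 cells, whereas Ts1Cje Trib1 lines were dim. Its interaction was -2.94 (SE 0.07, adjusted p = 6.04e-12). Cybb encodes the catalytic subunit of the phagocyte NADPH oxidase, which makes superoxide. Its intensities were 608, 601 and 578 in B6, 1544, 1526 and 1520.0 in Ts1Cje, 784, 767 and 749.5 in B6 Trib1 and 261, 256 and 286 in Ts1Cje Trib1. Every Trib1 array of the B6 background was above every B6 array, and every Trib1 array of the Ts1Cje background was below every other array. The interaction of Cybb was -2.81 (SE 0.06, adjusted p = 3.62e-12).

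Haptoglobin (Hp), which binds free haemoglobin, read 899.7, 919 and 882 in B6, 1805, 1804 and 1788 in Ts1Cje, 702, 691 and 685 in B6 Trib1 and 171, 156 and 196 in Ts1Cje Trib1. The genotypes differed by 0.99 without Trib1 and by -1.91 with it, an interaction of -2.89 (SE 0.08, adjusted p = 2.65e-11). For Ceacam10, a member of the carcinoembryonic antigen family, the intensities were 154, 149 and 143 in B6, 760.1, 669.6 and 713 in Ts1Cje, 102, 102 and 113 in B6 Trib1 and 44.7, 44.3 and 43.5 in Ts1Cje Trib1. It showed the largest genotype difference without Trib1 among the 8 genes, at 2.15, against -1.03 with Trib1. Olfactomedin 4 (Olfm4), carried by a subset of neutrophils, had an interaction of -3.20 (SE 0.09, adjusted p = 2.65e-11). Cd177, a neutrophil surface glycoprotein, reached -2.85 (SE 0.09, adjusted p = 5.2e-11), and Lrg1, a leucine-rich glycoprotein of neutrophil granules and plasma, -2.80 (SE 0.07, adjusted p = 5.29e-12). In each of these 3 genes the groups did not overlap in either comparison.

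**Figure D2:**
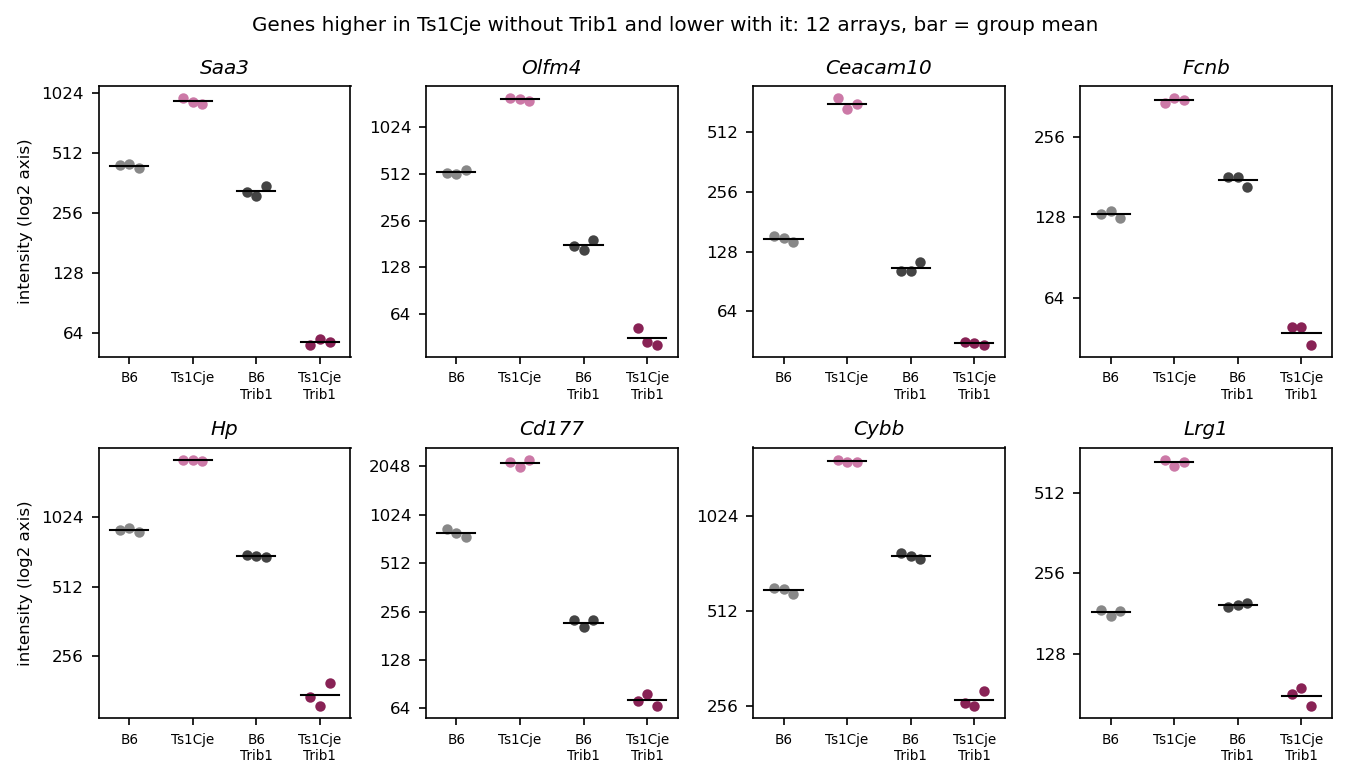
Intensity on a log2 axis in each of the 12 arrays (points) and the group mean (bar) for the 8 genes with the largest downward crossing. In all 8 panels the 3 Ts1Cje arrays are the highest and the 3 Ts1Cje Trib1 arrays the lowest.

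Among all 225 large downward crossings, the Ts1Cje mean was the highest of the 4 in 208 and the B6 Trib1 mean in 17. The Ts1Cje Trib1 mean was the lowest in 206 and the B6 mean in 19. The definition of a downward crossing leaves only Ts1Cje or B6 Trib1 as highest, and only Ts1Cje Trib1 or B6 as lowest. Signal was higher with Trib1 than without it in 64 of the 225 genes in the B6 background and in 5 in the Ts1Cje background. The 225 genes held 127 with a mean of at least 100 in every group, a share near that of all genes tested (6782 of 12560, 54.0%).

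The promoters of Saa3 and Fcnb are shown because both genes moved together and both hold a C/EBP core before the start site. They were picked for this core. Among the other leading downward crossings, the promoters of Olfm4, Ceacam10, Cd177, Cybb and Lrg1 held none in the window described below. The 250 bases before the annotated start are given 5' to 3' on the gene's strand, from RefSeq on GRCm38.p6, with motif matches in capitals. For Saa3 (chr7:46715677-46715926, minus strand) the capitals mark an interferon response core beginning 125 bases and a C/EBP core beginning 99 bases before the start. For Fcnb (chr2:28084879-28085128, minus strand) they mark C/EBP cores beginning 235 and 123 bases before the start.
Saa3: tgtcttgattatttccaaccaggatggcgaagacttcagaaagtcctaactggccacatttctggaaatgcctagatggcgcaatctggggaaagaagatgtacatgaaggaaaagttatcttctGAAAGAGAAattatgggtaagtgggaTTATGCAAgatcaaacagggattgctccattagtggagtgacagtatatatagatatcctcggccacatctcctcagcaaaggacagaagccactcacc
Fcnb: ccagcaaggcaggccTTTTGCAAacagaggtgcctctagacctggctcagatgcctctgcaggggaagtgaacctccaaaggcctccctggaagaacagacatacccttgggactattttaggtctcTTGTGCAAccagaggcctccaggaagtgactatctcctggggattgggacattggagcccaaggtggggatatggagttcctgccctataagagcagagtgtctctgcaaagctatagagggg

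The motif cores were searched on both strands in the 300 bases from 250 before to 50 after each start. They were TTGCNNAA for C/EBP factors, GAGGAA for PU.1 and GAAANNGAA for interferon response factors, and GAGGAA can overlap GAAANNGAA by its last 3 letters. Of 10127 tested genes with a promoter in the table, 10.2% held the C/EBP core, 30.9% the PU.1 core and 8.59% the interferon core. Of the 225 large downward crossings, 184 had a promoter in the table, and 14.1%, 44.6% and 11.96% of these held the respective core. Over all 27025 genes with a promoter the shares were 12.2%, 31.3% and 9.76%. A match describes letters in this window and not binding.

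Granule genes moved as a group. Of 21 measured genes of secondary and tertiary granules and other late neutrophil products, 20 had a negative interaction and none a positive one, against 20.2% negative among all genes. The median interaction was -2.57, with median genotype differences of 1.24 without Trib1 and -1.04 with it, and 19 crossed downward. Read the other way, the median change from cells to Trib1 lines was 0.04 in the B6 background and -2.56 in the Ts1Cje background. The list's summed intensity ran from 25225 to 25319 in B6, 46744 to 46938 in Ts1Cje, 22172 to 22303 in B6 Trib1 and 12035 to 12413 in Ts1Cje Trib1. The exception with no passing interaction was Mmp9, gelatinase B, at 0.09 (adjusted p = 0.509), and Padi4 passed without a crossing.

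Primary granule genes, which are made earlier, showed the same sign with smaller values. Of 11 measured genes 10 were negative and none positive, with a median of -1.07. Neutrophil elastase (Elane) had means of 1790.0, 2702, 915 and 257 and an interaction of -2.37 (SE 0.09, adjusted p = 4.1e-10). Myeloperoxidase (Mpo), the oxidant-making enzyme of these granules, had intensities of 4101, 4236 and 4047 in B6, 4669, 4569.7 and 4611 in Ts1Cje, 2975, 3017 and 2899.7 in B6 Trib1 and 1131, 1089 and 1126 in Ts1Cje Trib1. The genotype difference of Mpo was only 0.16 without Trib1 and was -1.40 with it. Igsf6, an immunoglobulin superfamily receptor on the same list, had means of 544, 1099, 457 and 152 with no overlap between genotypes in either setting.

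Calcium-binding S100 proteins and stefins, which are abundant in neutrophil cytosol, were negative in 9 of 9 measured genes, with a median of -0.66. S100a8 had means of 6903, 7994, 6026 and 4029 and an interaction of -0.79. Stfa3 (-2.42) and Stfa2l1 (-1.99) belong to a cluster of near-identical stefin genes whose signals the probe sets may share. All 4 measured oxidase subunits were negative, with a median of -0.65, and besides Cybb they included Ncf4 (-0.66) and Cyba (-0.63). Of 7 acute phase genes 5 were negative and none positive, with a median of -2.13, and Hp, Lrg1 and Lcn2 among them are also on the granule list.

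Monocyte and macrophage genes were negative almost throughout. Of 27 measured genes 25 were negative and none positive, with a median of -1.503 and 17 downward crossings. Tgfbi, a secreted matrix protein, had intensities of 3492, 3566 and 3519.9 in B6, 4706, 4661 and 4458 in Ts1Cje, 907, 857 and 874 in B6 Trib1 and 155, 169.6 and 171 in Ts1Cje Trib1. Its genotype difference was 0.38 without Trib1 and -2.31 with it, an interaction of -2.70 (SE 0.06, adjusted p = 3.77e-12). F13a1, a coagulation factor subunit of monocytes, had means of 722, 1790.2, 544 and 217 and an interaction of -2.56. Cd14, the lipopolysaccharide co-receptor, had means of 100.3, 189, 148 and 45.3 and an interaction of -2.26. The list's summed intensity ran from 39241 to 39608 in B6, 49703 to 50024 in Ts1Cje, 20994 to 21101 in B6 Trib1 and 14786 to 14920 in Ts1Cje Trib1. In these bulk samples, fewer cells of a type and less RNA per cell cannot be told apart.

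Pattern recognition receptors followed the monocyte genes. Of 16 measured Toll-like receptors and C-type lectins 15 were negative and none positive, with a median of -0.62. Clec5a had means of 326, 580.1, 302 and 103 and an interaction of -2.23, and Clec4a2 one of -2.03. Eosinophil genes were negative in 6 of 7 cases, with a median of -1.30. Epx, eosinophil peroxidase, had means of 184, 382, 203 and 52.8 and an interaction of -2.68 (SE 0.12, adjusted p = 1.27e-09). Prg2, the major basic protein, had means of 181, 402, 577 and 205 and an interaction of -2.52.

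Mast cell and basophil genes also leaned negative, with 9 negative and 2 positive among 18, but with a smaller median of -0.14. Among all genes, 20.2% were negative and 28.4% positive. The median change of the mast cell and basophil genes with Trib1 was 1.88 in the B6 background and 1.82 in the Ts1Cje background. Mcpt8, a basophil protease, had means of 1411, 2735, 4410.4 and 3859.6 and an interaction of -1.14. Fcer1a, a chain of the high-affinity IgE receptor, had means of 43.9, 246, 2755 and 5231 and an interaction of -1.22 on the log2 scale, while on the linear scale the difference of differences was positive, at 2274. Added values of 1 and 50 gave -1.53 and -0.74, as the B6 mean was dim. It was higher in Ts1Cje in both settings.

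Transcription factors of the myeloid lineage leaned the same way. Of 18 measured C/EBP and other myeloid factors 11 were negative and 3 positive, with a median of -0.49. Cebpd, a C/EBP factor of late granulocytes and macrophages, had intensities of 659, 682 and 682 in B6, 1057, 1010.3 and 1110.1 in Ts1Cje, 292, 289.9 and 305 in B6 Trib1 and 103, 110.3 and 104 in Ts1Cje Trib1. Ts1Cje arrays were highest and Ts1Cje Trib1 arrays lowest, and the interaction was -2.00 (SE 0.06, adjusted p = 4.97e-11). Klf4, a factor of monocytes, had an interaction of -1.49, and Gfi1, a repressor needed for neutrophils, -1.15. Spi1, which encodes PU.1, had means of 637, 889.7, 449.9 and 305 and an interaction of -1.02. Cebpa, the gene of the protein that Trib1 targets, had intensities of 409, 384 and 407 in B6, 501, 507 and 533 in Ts1Cje, 971, 922 and 897 in B6 Trib1 and 1105, 1074 and 921 in Ts1Cje Trib1, and its interaction of -0.20 (SE 0.09, adjusted p = 0.0672) did not pass. Array intensities measure RNA and not the amount of the C/EBP alpha protein.

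The largest upward crossings included a granzyme, an interferon-inducible GTPase and genes of lymphoid cells. Granzyme A (Gzma), a protease of cytotoxic granules, had intensities of 331, 332 and 327 in B6, 108, 81.5 and 81.2 in Ts1Cje, 1044, 1023 and 1049.5 in B6 Trib1 and 1587, 1681 and 1609 in Ts1Cje Trib1. Ts1Cje arrays were the lowest and Ts1Cje Trib1 arrays the highest, and both Trib1 groups exceeded both groups without Trib1. Its interaction of 2.36 (SE 0.10, adjusted p = 1.41e-09) was the largest positive value among all genes tested. Of 9 measured granzyme and perforin genes 3 were positive and 2 negative, with a median of 0.03. These shares lay near the 28.4% positive and 20.2% negative of all genes. Tgtp1, an interferon-inducible GTPase that has a near-identical neighbour, read 1025, 1035 and 1023 in B6, 418, 412 and 422 in Ts1Cje, 970.4, 966 and 959 in B6 Trib1 and 1608, 1591 and 1636 in Ts1Cje Trib1. B6 and B6 Trib1 arrays lay close together, Ts1Cje arrays far below them and Ts1Cje Trib1 arrays far above. The interaction was 2.00 (SE 0.04, adjusted p = 3.77e-12).

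Trgv1, a variable segment of the T-cell receptor gamma locus, read 164, 157 and 167 in B6, 82.1, 82.7 and 76.9 in Ts1Cje, 212, 228 and 226 in B6 Trib1 and 508, 534 and 467 in Ts1Cje Trib1, an interaction of 2.02 (SE 0.07, adjusted p = 1.96e-10). Klk8, a serine protease, read 82.8, 87.3 and 90.03 in B6, 62.5, 64.9 and 60.6 in Ts1Cje, 95.5, 96.3 and 97.2 in B6 Trib1 and 282, 289.6 and 265 in Ts1Cje Trib1. The genotype difference was 1.40 in the lines and -0.39 without Trib1, an interaction of 1.79 (SE 0.06, adjusted p = 1.17e-10). Tnfsf10, which encodes the death ligand TRAIL, had means of 149, 49.8, 121 and 179.7 and an interaction of 1.86, or 1.22 with the mean of its probe sets. Nlrc3, a cytosolic receptor of the NLR family, had an interaction of 1.78, or 0.91 with the mean of its probe sets. Tfr2, transferrin receptor 2, had an interaction of 1.75, or 0.97 without probe sets marked as shared or cross-hybridizing. Vpreb1, a surrogate light chain gene of B-cell progenitors, fell from 1911, 1814 and 1918 in B6 to 622, 560.0 and 577 in Ts1Cje, and was dim in both Trib1 groups at 24.98, 31.7 and 25.1 and 32.4, 37.3 and 34.2. Its genotype difference was -1.66 without Trib1 and 0.23 with it, an interaction of 1.89.

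**Figure D3:**
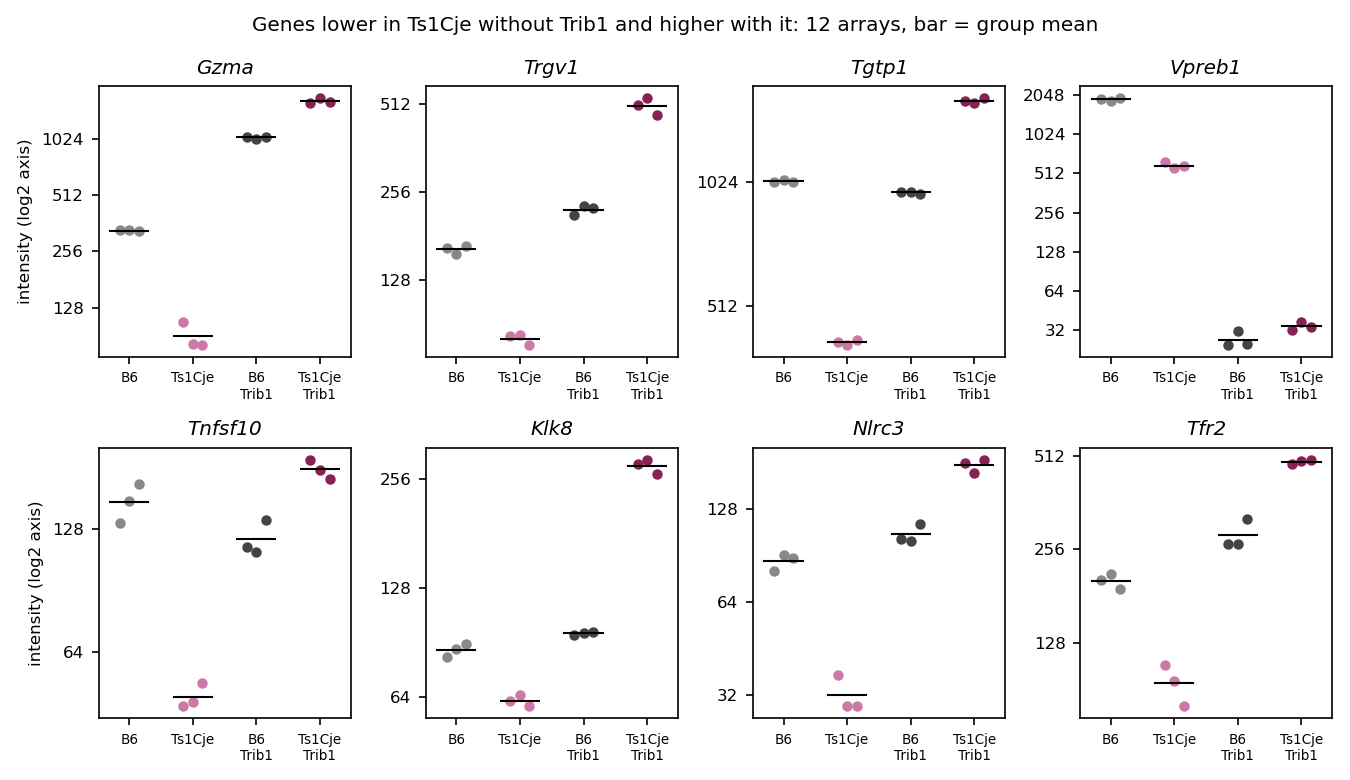
Intensity on a log2 axis in each of the 12 arrays (points) and the group mean (bar) for the 8 genes with the largest upward crossing. Ts1Cje arrays are the lowest in 7 panels and Ts1Cje Trib1 arrays the highest in 7, while in the Vpreb1 panel both Trib1 groups lie between 24.98 and 37.32.

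Among all 83 large upward crossings, the Ts1Cje Trib1 mean was the highest in 54 and the B6 mean in 29. The Ts1Cje mean was the lowest in 62 and the B6 Trib1 mean in 21. Here the definition leaves only Ts1Cje Trib1 or B6 as highest, and only Ts1Cje or B6 Trib1 as lowest. Signal was higher with Trib1 in 41 of the 83 in the B6 background and in 71 in the Ts1Cje background. These counts mirror the downward crossings in part, but the B6 group was more often at an extreme.

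The promoters of Gzma and Tgtp1 are shown because these 2 genes lead the upward crossings with an annotated promoter and both hold an interferon response core. The promoters of Klk8, Nlrc3, Tfr2, Tnfsf10 and Vpreb1 held no such core in the window searched. Those of Saa3, Olfm4 and Cybb, which crossed downward, did hold it. Coordinates are again those of GRCm38.p6 and the bases are RefSeq's 250 before the start. In Gzma (chr13:113100982-113101231, minus strand) the capitals mark interferon response cores beginning 96 and 66 bases before the start. In Tgtp1 (chr11:48992247-48992496, minus strand) they mark a PU.1 core beginning 183 bases and an interferon response core beginning 77 bases before the start.
Gzma: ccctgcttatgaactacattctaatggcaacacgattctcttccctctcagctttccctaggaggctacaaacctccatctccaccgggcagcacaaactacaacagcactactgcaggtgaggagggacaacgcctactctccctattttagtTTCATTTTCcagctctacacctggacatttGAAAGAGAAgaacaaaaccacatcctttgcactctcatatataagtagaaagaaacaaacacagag
Tgtp1: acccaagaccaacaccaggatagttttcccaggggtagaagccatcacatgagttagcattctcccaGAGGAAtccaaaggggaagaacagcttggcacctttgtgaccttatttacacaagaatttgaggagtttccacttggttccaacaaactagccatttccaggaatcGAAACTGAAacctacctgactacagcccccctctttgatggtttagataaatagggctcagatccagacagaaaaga

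Of the 83 large upward crossings, 68 had a promoter in the table. The C/EBP core was present in 20.6% of these, the PU.1 core in 39.7% and the interferon response core in 17.6%, beside 10.2%, 30.9% and 8.59% of the tested genes. The C/EBP core was found in 14 of 68 upward and 26 of 184 downward crossings, or in 17.6% and 12.5% with 1 promoter per gene, and no test of that difference was made.

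Interferon-inducible GTPases had positive interactions. Of 12 measured immunity-related GTPases and guanylate-binding proteins, which act against intracellular pathogens, 11 were positive and none negative, against 28.4% positive among all genes. The median was 0.71, from a median genotype difference of -0.47 without Trib1 and 0.21 with it, and 7 crossed upward. Besides Tgtp1, the list held Gbp10 (1.12), Igtp (0.87) and Irgm1 (0.82). The 36 type I interferon response genes were less uniform, with 21 positive, 5 negative and a median of 0.23. Centring on the tested genes left 11 positive and made 9 negative on that list. Rtp4, a chaperone of receptor transport induced by interferon, had means of 176, 145, 486 and 800.0 and an interaction of 0.96.

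MHC class II genes were mostly negative, while no class I gene passed as negative. Of 13 class I pathway genes 6 were positive and none negative, beside 28.4% positive and 20.2% negative among all genes. Nlrc5, the class I transactivator, led them with means of 420.0, 244, 105 and 154 and an interaction of 1.25 (SE 0.06, adjusted p = 4.25e-09). Of 13 class II pathway genes 8 were negative and 3 positive, with a median of -0.26. Ctss, cathepsin S, had means of 3340.1, 3851, 1757 and 839 and an interaction of -1.26, whereas H2-Oa had one of 0.86. The class I count fell to 3 positive and 1 negative with centring on the tested genes.

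Most progenitor genes had positive interactions. Of 22 measured stem and progenitor genes 15 were positive and 3 negative, with a median of 0.46. Their median genotype difference was -0.42 without Trib1 and 0.02 with it. Centring on the tested genes gave 12 positive and 3 negative. The median change with Trib1 was 0.01 in the B6 background and 0.83 in the Ts1Cje background. The list's summed intensity was higher with Trib1 in both backgrounds. It ran from 9073 to 9183 in B6, 6918 to 7259 in Ts1Cje, 14585 to 14876 in B6 Trib1 and 14503 to 15483 in Ts1Cje Trib1. Sox4, a transcription factor of immature cells, had intensities of 1220.2, 1211 and 1228 in B6, 541, 512 and 478 in Ts1Cje, 1454, 1448 and 1530.2 in B6 Trib1 and 1787, 1789.8 and 1757 in Ts1Cje Trib1. The low group was Ts1Cje, and the interaction was 1.50 (SE 0.06, adjusted p = 8.34e-10). Cd34, a surface marker of progenitors, had means of 382, 122, 514 and 467 and an interaction of 1.40, and Adgrg1 had one of 1.41. Spi1, given above at -1.02, is also on this list. Prom1, a membrane glycoprotein used to mark stem cells, went the other way, with intensities of 371, 359 and 393 in B6, 829, 846 and 860.5 in Ts1Cje, 154, 154 and 174 in B6 Trib1 and 45.6, 50.6 and 55.4 in Ts1Cje Trib1 and an interaction of -2.57 (SE 0.08, adjusted p = 1.01e-10). HOX and MEIS genes held 2 positive and 1 negative among 11. Meis1 had an interaction of 1.20, or 0.60 with the mean of its probe sets.

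**Figure D4:**
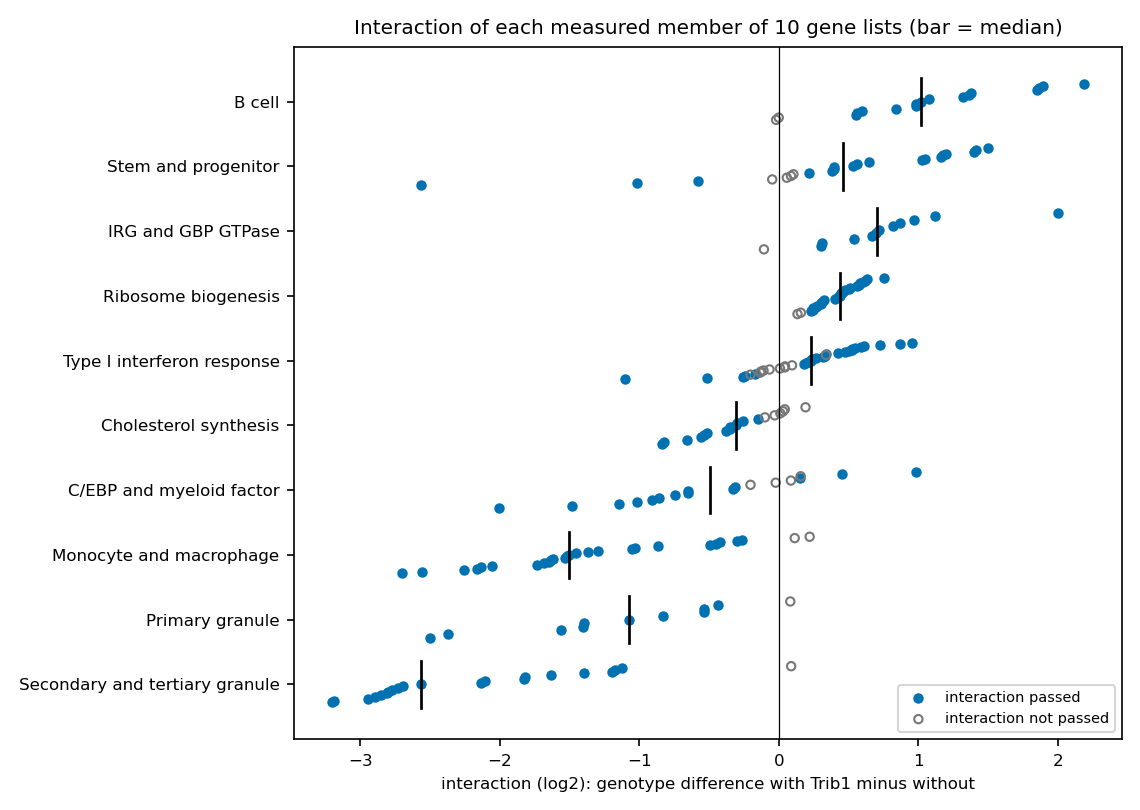
Interaction on the log2 scale of each measured member of 10 gene lists, filled where it passed and open where it did not, with a bar at the list median. The secondary and tertiary granule members reach from -3.20 to 0.09 and the ribosome biogenesis members from 0.13 to 0.75.

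Ribosome biogenesis genes had positive interactions of moderate size. All 27 measured ribosome biogenesis genes were above 0, 25 passed as positive and none as negative, and all 27 were bright in every group. The median was 0.44, with a genotype difference of -0.36 without Trib1 and 0.09 with it. Nop58, a core protein of small nucleolar particles, had intensities of 1761, 1598 and 1554 in B6, 1134, 1239 and 1042 in Ts1Cje, 1325, 1380.2 and 1290.1 in B6 Trib1 and 1464, 1511 and 1736 in Ts1Cje Trib1 and an interaction of 0.75 (SE 0.10, adjusted p = 6.95e-05). Myc, the transcription factor that drives this programme, had means of 1050.2, 703, 1209 and 1307 and an interaction of 0.68. Centring on the tested genes left 18 of the 27 positive. By contrast, cytosolic ribosomal protein genes held 3 positive and none negative among 39, with a median of 0.07.

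DNA replication genes were positive in 18 of 31 cases and negative in none, with a median of 0.21. Centring on the tested genes gave 9 positive and 2 negative, with a median of 0.10. Genes of G2 and mitosis held none positive and 4 negative among 28, with a median of -0.05. Respiratory chain genes held 5 positive and 2 negative among 37, which became none and 10 with that centring. The 20 CDK inhibitor and p53 target genes held 9 positive and 2 negative, beside 28.4% positive and 20.2% negative among all genes. Rprm, a p53 target that slows the G2 phase, had an interaction of 1.55 with means of 51.6, 56.7, 237 and 783.

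Cholesterol synthesis genes were negative in 13 of 19 cases and positive in none, with a median of -0.31. Their median genotype difference was 0.30 without Trib1 and 0.00 with it. Fdps, farnesyl diphosphate synthase, had intensities of 1984, 2035 and 2027 in B6, 3374, 3358 and 3413 in Ts1Cje, 3139, 3057 and 3018 in B6 Trib1 and 2896, 2879 and 2846 in Ts1Cje Trib1. The B6 arrays were lowest, the arrays of the other groups lay between 2846 and 3413, and the interaction was -0.84 (SE 0.05, adjusted p = 1.19e-08). Glycolysis and hypoxia genes held 15 negative and 5 positive among 27, with a median of -0.26, led by Mxi1, an antagonist of Myc, at -1.10. Endoplasmic reticulum and integrated stress genes held 9 negative and 2 positive among 28, beside 20.2% negative and 28.4% positive among all genes.

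Signalling lists gave no single direction, and several of their shares lay near the 28.4% positive and 20.2% negative of all genes. IL-3 and STAT5 genes held 10 positive and 4 negative among 20, with a median of 0.23, or 8 and 6 with centring on the tested genes. Pim2, a survival kinase induced by STAT5, had means of 509.6, 208, 535 and 501 and an interaction of 1.14. ERK feedback and immediate early genes held 9 positive and 5 negative among 24, with a median of 0.03, and centring on the tested genes turned this to 5 and 9. Dusp2, a phosphatase of ERK, had the largest value there at 0.88. Chemokine and cytokine genes held 6 positive and 8 negative among 24. Among Tribbles, COP1 and MEK genes, Trib2 had an interaction of 0.65, or 0.43 with an added value of 50, with means of 70.6, 40.4, 20.9 and 21.5, and Map2k1, which encodes MEK1, one of -0.39.

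Most B and T lineage genes were dim in the lines. B cell genes were positive in 15 of 17 cases and negative in none, with a median of 1.02. However, 14 of the 17 were dim in B6 Trib1 and 14 in Ts1Cje Trib1. The median genotype difference of the B cell genes was -1.10 without Trib1 and -0.01 with it. The summed intensity of the list ran from 10429 to 10679 in B6, 4162 to 4318 in Ts1Cje, 614 to 665 in B6 Trib1 and 595 to 637 in Ts1Cje Trib1. Ebf1, a B-lineage transcription factor, had means of 379, 95.1, 11.7 and 11.9. T and NK cell genes were positive in 13 of 18 cases and negative in 1, with a median of 0.65. Of the 18, 13 were dim in B6 Trib1 and 13 in Ts1Cje Trib1. Their summed intensity was nonetheless lowest in Ts1Cje. It ran from 2107 to 2272 in B6, 1345 to 1403 in Ts1Cje, 2142 to 2157 in B6 Trib1 and 2100 to 2218.5 in Ts1Cje Trib1. Erythroid genes held 7 positive and none negative among 13, megakaryocyte genes 8 and 7 among 17, dendritic cell genes 4 and 2 among 10, and stroma genes 4 and 1 among 10, beside 28.4% positive and 20.2% negative among all genes. Centring on the tested genes gave 5 positive and 1 negative erythroid genes. Hbb-y, an embryonic beta globin, had intensities of 9.24, 10.9 and 9.87 in B6, 10.8, 11.8 and 9.14 in Ts1Cje, 86.4, 81.6 and 98.9 in B6 Trib1 and 278, 286 and 281 in Ts1Cje Trib1, so it was raised in both Trib1 groups and highest in Ts1Cje Trib1. The part of these cells in the interactions of other genes was not tested.

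**Figure D5:**
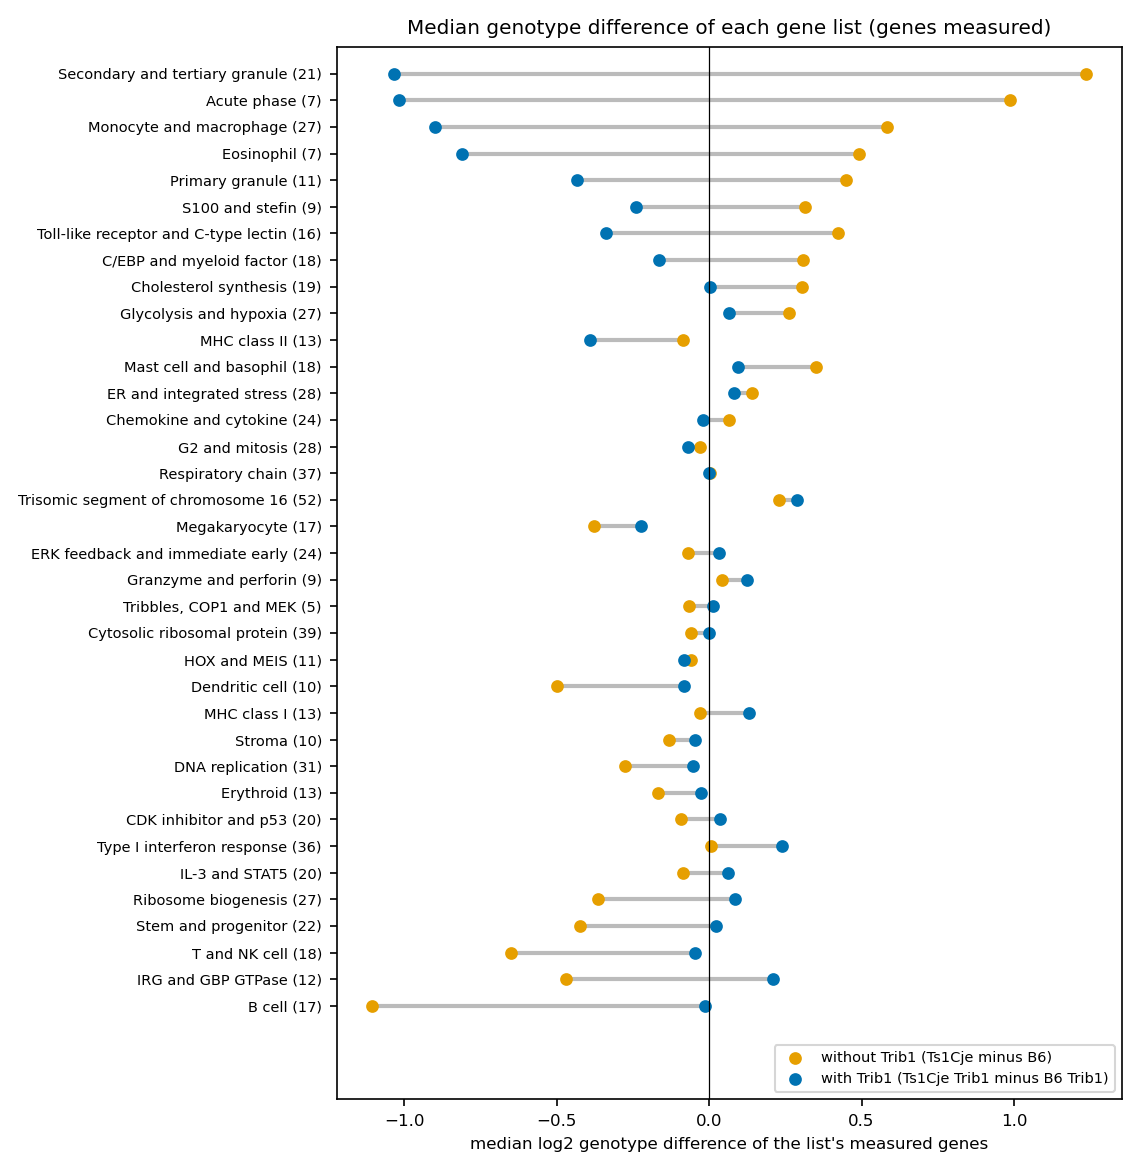
Median log2 genotype difference of each gene list with at least 5 measured genes, without Trib1 (orange) and with Trib1 (blue), ordered by median interaction. Lists at the top cross from positive to negative, with medians of 1.24 and -1.04 for secondary and tertiary granule genes, and the interferon-inducible GTPases cross from -0.47 to 0.21.

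Genes on the trisomic segment did not share a direction of interaction. Of 52 measured genes 15 were positive and 16 negative, with a median of -0.003, while 34 were higher in Ts1Cje without Trib1 and 32 with it. Among all genes tested, 28.4% had a positive and 20.2% a negative interaction, while 23.3% were higher in Ts1Cje without Trib1 and 11.9% with it. Centring on the tested genes gave 10 positive and 21 negative. Erg, an ETS factor of stem cells and megakaryocytes, had intensities of 307, 299 and 304 in B6, 270.1, 228 and 216 in Ts1Cje, 300.2, 294 and 322 in B6 Trib1 and 516, 510.1 and 500.1 in Ts1Cje Trib1. On this probe set Erg was lowest in Ts1Cje and highest in Ts1Cje Trib1 although both carry the extra copy. The interaction was 1.05 (SE 0.09, adjusted p = 9.72e-07), or 0.81 with the mean of its probe sets. The other Erg probe set differed by 0.04 without Trib1 and by 0.62 with it, so the low Ts1Cje signal was not shared. Tmem50b, a membrane protein gene, read 777, 804 and 767 in B6, 1593, 1571 and 1630.2 in Ts1Cje, 549.9, 527 and 523 in B6 Trib1 and 510.4, 509 and 519 in Ts1Cje Trib1, with a genotype difference of 1.02 without Trib1 and -0.05 with it. Itsn1, an endocytic scaffold, had an interaction of -1.09, or -0.58 with the mean of its probe sets. Ifngr2 (-0.66) and Il10rb (-0.80), cytokine receptor chains of this segment, were also negative. Of 4 measured genes of distal chromosome 12, 2 were positive and none negative. These were Sp4, at 0.75 (0.35 when its probe sets were averaged), and Cdca7l, at 0.20, which did not pass with quantile normalization or centring on the tested genes. By chromosome, the median interaction of all genes lay between -0.02 and 0.06.

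Sex-linked genes differed between the groups. Xist, the RNA of the inactive X chromosome, had intensities of 1322, 1313 and 1324 in B6, 1070.2, 1104 and 1106 in Ts1Cje, 784, 798 and 769.6 in B6 Trib1 and 2029.6, 1999.7 and 2182 in Ts1Cje Trib1 and an interaction of 1.65 (SE 0.06, adjusted p = 1.17e-10). The Y-linked gene Eif2s3y had means of 534, 449, 558 and 395, so each group gave signal for both. Kdm5d and Uty, also on the Y chromosome, had interactions of -0.05 and 0.13 that did not pass. The part of sex in the interaction was not tested.

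In some genes the genotype difference passed in 1 comparison only. Padi4, an enzyme that citrullinates histones, had intensities of 151, 147 and 143 in B6, 496, 487 and 456 in Ts1Cje, 269, 271 and 279 in B6 Trib1 and 271, 271 and 265 in Ts1Cje Trib1. Ts1Cje stood above B6 without Trib1, the Trib1 groups overlapped, and the interaction was -1.63 (SE 0.06, adjusted p = 1.38e-10). Prkcq, a protein kinase C, showed the reverse, with 467, 461 and 455 in B6, 154, 178 and 172 in Ts1Cje, 556, 556 and 519 in B6 Trib1 and 556, 580.1 and 562 in Ts1Cje Trib1 and an interaction of 1.44 (SE 0.07, adjusted p = 3.26e-09). In the lines alone, Tjp1, a tight junction protein, read 126, 144 and 141 in B6, 152, 122 and 125 in Ts1Cje, 441, 416 and 439 in B6 Trib1 and 900.5, 890.3 and 909 in Ts1Cje Trib1. The groups without Trib1 overlapped, and Ts1Cje Trib1 was 1.03 above B6 Trib1. The chemokine Ccl2, which attracts monocytes, read 2594, 2586 and 2511 in B6, 2665, 2797 and 2800.0 in Ts1Cje, 378, 402 and 399 in B6 Trib1 and 150.4, 148 and 115 in Ts1Cje Trib1, with a genotype difference of -1.42 in the lines. Others of this kind were Kifap3 (0.90), Ifi27l2a (0.87), Nrp1 (-0.99) and Ugt1a9 (-1.35). Scpep1 (-0.93) is less certain, as its other probe set differed by 0.77 without Trib1 and by -0.69 with it. Cfap298 (0.75) is also less certain, as it fell to 0.20 with the mean of its probe sets.

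In 182 genes both genotype differences passed in 1 direction but with unequal size. Mpeg1, a pore-forming protein of macrophages, read 1608, 1723 and 1682 in B6, 1551, 1567 and 1518 in Ts1Cje, 783, 803 and 770.4 in B6 Trib1 and 253, 266 and 248 in Ts1Cje Trib1. The genotype difference was -0.11 without Trib1 and -1.56 with it. Lpl, lipoprotein lipase, had genotype differences of -0.20 and -1.52. Slc14a1, a urea transporter, differed by -1.52 without Trib1 and by -0.28 with it, and Timp3, a metalloproteinase inhibitor, by -1.50 and -0.39. Bnip3, a mitochondrial protein induced by hypoxia, was higher in Ts1Cje in both, by 1.09 and 0.33.

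Probe sets without a gene symbol carried the interaction too. In a fit to all 45037 probe sets, 12487 passed (27.7%), 7388 as positive and 5099 as negative. Of 15588 with no symbol, 2054 were positive and 1288 negative, of which 91 and 64 had a size of at least 1. None of the 16494 probe sets below the filter reached that size. On the linear scale of intensities the difference of differences had the other sign in 34 of the 6110 passing genes, and in 3 of the 418 large ones.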

How the data were processed

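Total RNA (100 ng) of 12 samples was hybridised to 1 Affymetrix array each. The deposited values are 1 intensity per probe set without log transformation. They were made with MAS5, per the submitters' processing notes. The scaling target and the genome build are not given in the sources used here, nor is how MAS5 was applied to arrays with perfect-match probes alone. The number of arrays limits the precision.

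Groups came from the sample labels. Symbols came from the platform table and were updated by Entrez identifier to RefSeq's GRCm38.p6 gene table (28689 of 28898 probe sets with 1 symbol matched, 551 had several symbols and 15588 none). Probe sets above their array's 40th percentile on at least 3 arrays were kept, the brightest one represented its gene, and 15, the rounded 20th percentile of all values, was added before the log2 was taken. With limma 3.58.1 in R 4.3.3, 4 group means were fitted to all 12 arrays with moderated variances (lmFit and eBayes), tests were two-sided, and the Benjamini-Hochberg adjustment ran over all 12560 genes. The threshold was an adjusted p of 0.05. The procedure was tested on simulated data. SE is the moderated standard error of a log2 difference. Replicate numbers were not used as pairs: same-numbered arrays had correlations of deviations from -0.45 to 0.35, and 3 of 12 arrays were closest to their own number.

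Genes named are, among passing genes, the 8 largest of each crossing, the 4 largest in each direction of the other patterns among genes with a mean of at least 100 in every group, up to 3 members per list, Trib1 and passing sex-linked, Tribbles and chromosome 12 genes; a subset is printed. Cd34, Cebpa, Dnah11, Ifngr2, Igtp, Il10rb, Irgm1, Kdm5d, Lcn2, Mmp9, Ptprc, Spi1 and Uty were named after their values were seen, as were the limits of 1 and 2 on the size of an interaction and of 50 on dim means. The contrast, the gene lists and the rule were chosen with earlier results of these data known, so no list is independent evidence. Tomm7 and Il6 were taken off the chromosome 12 list because the gene table places them on chromosome 5. Lists are described by counts and medians beside those of all genes. Alternatives were quantile normalization, median centring, added values of 1 and 50, no filter and a stricter one at the 60th percentile, the mean of probe sets, leaving out cross-hybridizing probe sets, a variance trend with robust moderation, the replicate block, each array left out in turn and, chosen after seeing the data, centring on the tested genes, leaving out Ts1Cje 1 and B6 Trib1 3 together, and the linear scale.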

Additional observations from a re-analysis of the deposited data

Results flagged for a closer look

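The 16 genes below are the largest crossings in each direction, selected on these same arrays. By that selection, their genotype difference pointed in opposite directions without and with Trib1. Every array of one genotype lay beyond those of the other in both settings, which the selection favours, so this only describes them. The interaction tests the difference itself, but its size was the basis of the selection. On the log2 scale the interactions were -3.29 for Saa3, -3.20 for Olfm4, -3.19 for Ceacam10, -2.94 for Fcnb, -2.89 for Hp, -2.85 for Cd177, -2.81 for Cybb and -2.80 for Lrg1. In the other direction they were 2.36 for Gzma, 2.02 for Trgv1, 2.00 for Tgtp1, 1.89 for Vpreb1, 1.86 for Tnfsf10, 1.79 for Klk8, 1.78 for Nlrc3 and 1.75 for Tfr2. Single genes were not searched for deviating arrays, since each group holds 3.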

How the results depend on the processing

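Across the alternatives with each single array left out, the number of genes passing the interaction ran from 5316 to 6863. It rose without Ts1Cje 1 (6863) and without B6 Trib1 3 (6435), and fell without any 1 of the other 10 arrays. Leaving out these arrays singly also raised the count over all probe sets, to 15567 and 13808, and without both 7238 genes passed. With the replicate number as a block, 5818 genes passed, 3421 as positive and 2397 as negative, although the numbers do not pair the arrays. The number of large positive interactions was 250 with an added value of 1 and 80 with an added value of 50. Centring on the tested genes gave 2224 positive and 4042 negative genes and 385 upward crossings. Leaving out Ts1Cje 1 and B6 Trib1 3 together gave 1027 upward crossings, and single arrays left out gave from 430 to 749. On the linear scale the interaction turned to 2274 for Fcer1a and -81.5 for Gp1bb. The interaction of Trib1, which did not pass, was -0.0083 with quantile normalization and -0.0523 with centring on the tested genes. The cause of these shifts was not tested, apart from the added values, which by construction set how far differences of dim genes shrink. Dim signal limits the comparison of B-lineage genes in the lines.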
